A study of Mus musculus with 10 samples.

Results

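The 6 genes described here encode enzymes that make or use hydrogen peroxide, and their assembly factors: the dual oxidases Duox1 and Duox2, their maturation factors Duoxa1 and Duoxa2, lactoperoxidase (Lpo) and the NADPH oxidase Nox4. They were taken by symbol, and all 6 were among the 35275 Ensembl genes of the deposited expression table. RNA was sequenced from mammary glands of BALB/c mice, an inbred strain, on day 3 of lactation: 5 glands received 50 µL of lipopolysaccharide (LPS, the endotoxin of Gram-negative bacteria, here from Escherichia coli) at 0.4 mg/mL through the teat, and 5 received 50 µL of sterile phosphate-buffered saline (PBS). Left and right glands of the 4th pair were used for the LPS and PBS injections, and glands were taken 12 h later. The labels give n = 9 and do not tie the 10 libraries to mice, so which LPS and PBS glands came from 1 animal is not known here and each p-value covers only the spread among these libraries. No gland without an injection was analysed here.

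Dual oxidases are membrane enzymes that pass electrons from NADPH to oxygen and release hydrogen peroxide at the outer face of epithelia. They leave the endoplasmic reticulum only with their maturation factors, DUOXA1 for DUOX1 and DUOXA2 for DUOX2, and calcium switches them on. Lactoperoxidase, a heme enzyme of milk, saliva and airway fluid, uses hydrogen peroxide to oxidize thiocyanate to hypothiocyanite, which acts on bacteria. NOX4 makes hydrogen peroxide without a stimulus, needs the subunit p22phox, encoded by Cyba, and is known from kidney, endothelium and fibroblasts.

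Depth was 15734303 to 18869545 counted reads per library. Levels are in FPKM (fragments scaled to gene length in kilobases and to the number of counted reads), so they can be compared between genes, and 1 read on a gene of 1 kb was worth 0.053 to 0.0636 FPKM. The tissue was lactating gland by its transcripts: the summed FPKM of 8 milk protein genes was 249460 to 339668 in PBS glands and 207921 to 291585 in LPS glands. Transcripts that mark thyroid, where DUOX2 also works, were near 0, with a summed FPKM of at most 0.723 for 5 genes and Pax8 and Nkx2-1 at 0 in every library. Neutrophil markers differed between the groups, with 5 of 9 tested genes called higher in LPS glands by limma and 0 lower, where 2.63% of all tested genes were called higher. Cxcr2, 1 of the 5, was at 0.291 to 1.11 FPKM in PBS glands and at least 1.67 in LPS glands. Its 5 LPS glands alone met the 1 FPKM in 5 libraries needed for testing, and the count of 5 called includes it with that limit. Summed levels of the markers were 718 to 1876 FPKM in PBS against 7381 to 14200 in LPS glands. Most of that sum was S100a8 and S100a9, and the other 10 markers summed to 12.9 to 24.4 FPKM in PBS and 21.7 to 68.0 in LPS glands, ranges that overlap. B and T cell markers differed within the groups: their sum was 59.5 and 27.0 FPKM in PBS replicates 2 and 4 and 19.4 and 6.76 in LPS replicates 3 and 2, against 0.606 to 1.95 in the other 6 glands.

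The dual oxidase genes lie in 1 cluster on mouse chromosome 2 (build mm10, which is GRCm38), as 2 pairs, each of an oxidase and its own maturation factor placed head to head. Duox1 (ENSMUSG00000033268) runs from 122315672 to 122347972 on the plus strand and Duoxa1 (ENSMUSG00000027224) from 122302191 to 122313730 on the minus strand, with 1942 bases between their GENCODE start sites. Duoxa2 (ENSMUSG00000027225) runs from 122298900 to 122302885 on the plus strand. Duox2 (ENSMUSG00000068452) runs from 122279247 on the minus strand, up to 122298165 in the authors' deposited table and up to 122298449 in GENCODE M21, which puts its start 451 bases from that of Duoxa2. Lpo (ENSMUSG00000009356) is on chromosome 11 from 87806428 to 87828289, minus strand, 2014 bases from Mpo, the myeloperoxidase gene of neutrophils. Nox4 (ENSMUSG00000030562) is on chromosome 7 from 87246096 to 87398710, plus strand. All 6 genes are protein-coding. The exons of Duoxa1 and Duoxa2 overlap tail to tail by 682 bases on opposite strands, which is 17.1% of the exon bases of Duoxa1 and 42.8% of those of Duoxa2 in GENCODE M21. No strand setting is given in the sources used here, so reads from that overlap could not be assigned and the values of both maturation factors are uncertain to that extent. Duox1 and Duox2 transcripts shared 415 of the 5218 windows of 50 bases in Duox1, so some reads of the less abundant Duox2 could have come from Duox1 or have been dropped. No window of 50 bases was shared by Duoxa1 and Duoxa2, or by Lpo and Mpo or Epx.

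The 250 bases before the RefSeq start of each gene of the cluster are shown because the pair Duox1 and Duoxa1 was lower and the pair Duox2 and Duoxa2 was higher in the means of LPS glands. All are on build GRCm38.p6 and are written 5′ to 3′ on the strand of the gene. The windows are chr2:122315422-122315671 for Duox1 (plus strand), chr2:122313731-122313980 for Duoxa1 (minus), chr2:122298228-122298477 for Duox2 (minus) and chr2:122298650-122298899 for Duoxa2 (plus). Capitals mark matches, on either strand, to 7 motifs. Core promoter elements were the TATA box, searched as TATAAA, the binding element of NF-Y, searched as CCAAT, and the GC box of Sp1-type factors, searched as GGGCGG. Elements of inducible factors were the STAT element, searched as TTCNNNGAA, the AP-1 element, searched as TGANTCA, and a kappa B and an interferon element, given by name.
Duox1: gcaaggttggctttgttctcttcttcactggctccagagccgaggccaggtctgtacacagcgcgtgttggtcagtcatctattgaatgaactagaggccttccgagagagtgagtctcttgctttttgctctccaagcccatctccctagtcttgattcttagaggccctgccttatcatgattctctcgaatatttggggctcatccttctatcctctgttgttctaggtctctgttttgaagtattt
Duoxa1: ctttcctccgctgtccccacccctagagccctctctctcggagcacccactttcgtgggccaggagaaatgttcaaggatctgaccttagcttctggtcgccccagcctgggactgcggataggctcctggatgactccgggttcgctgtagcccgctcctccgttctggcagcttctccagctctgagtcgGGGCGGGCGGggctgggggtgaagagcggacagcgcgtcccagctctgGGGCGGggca
Duox2: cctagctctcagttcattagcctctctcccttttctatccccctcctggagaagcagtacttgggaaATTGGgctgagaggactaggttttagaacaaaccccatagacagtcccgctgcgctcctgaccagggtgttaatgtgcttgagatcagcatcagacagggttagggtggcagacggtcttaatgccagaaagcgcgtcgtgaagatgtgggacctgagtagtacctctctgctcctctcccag
Duoxa2: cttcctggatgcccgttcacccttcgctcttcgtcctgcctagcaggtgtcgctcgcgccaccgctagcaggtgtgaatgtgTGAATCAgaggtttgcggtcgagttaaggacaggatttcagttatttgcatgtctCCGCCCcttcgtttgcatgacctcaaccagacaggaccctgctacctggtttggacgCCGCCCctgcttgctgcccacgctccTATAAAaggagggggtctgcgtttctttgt
Duox1 had no match to the 7 motifs. Positions are counted from the RefSeq start site, with -1 as the base before it. Duoxa1 had 3 GC boxes, beginning at -58, -54 and -10, of which the first 2 overlap. GC content was 65.6% for Duoxa1, 47.6% for Duox1, 52.8% for Duox2 and 56.4% for Duoxa2, against a median of 52.4% over 32851 mouse promoter windows. Duox2 had 1 CCAAT box, beginning at -183, on the opposite strand. Most of the Duox2 window lies inside the GENCODE gene, whose start is at 122298449, so it is mostly not the sequence upstream of that start. Duoxa2 had a TATA box beginning at -30 and 2 GC boxes on the opposite strand at -113 and -56. It also had a match to the AP-1 search at -168, TGAATCA. The A in its middle stands at the base that the search left free, and whether AP-1 binds there was not tested. Of the 32851 windows, 12.4% held the TATA box, 33.8% the CCAAT box, 32.7% the GC box and 6.75% the AP-1 element. The STAT element was in 7.02% of all windows, the interferon element in 2.98% and the kappa B element in 1.41%, and none of these 3 was in the 4 windows shown. The window of Lpo (chr11:87826115-87826364, minus strand) held none of the 7 motifs, and that of Nox4 (chr7:87246399-87246648, plus strand) held a STAT element and a GC box. Both windows lie inside the GENCODE gene spans given above. The sequence upstream of the GENCODE starts of Lpo and Nox4 was therefore not searched.

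**Figure D1:**
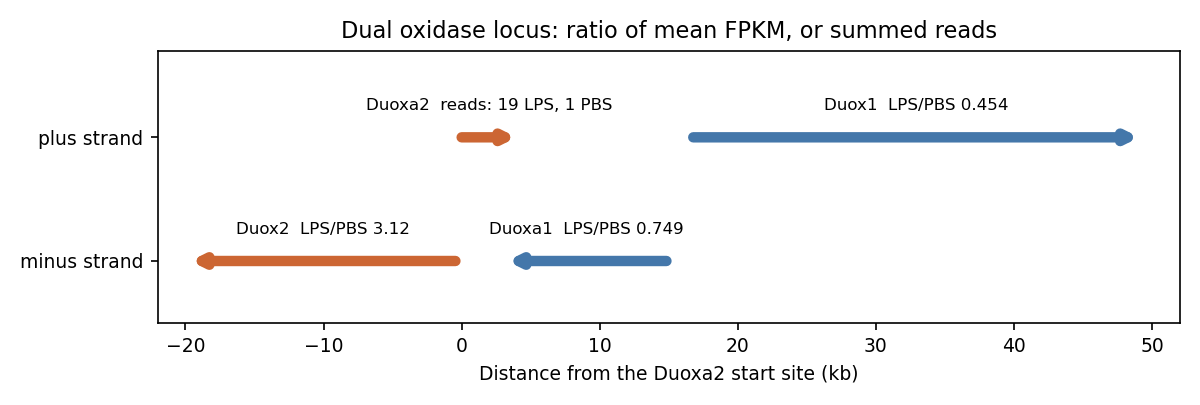
The dual oxidase cluster, with each gene as an arrow along its span (x axis, distance from the Duoxa2 start site in kb) on its strand (y axis). The ratio of mean FPKM, LPS over PBS, was 0.454 for Duox1, 0.749 for Duoxa1 and 3.12 for Duox2 and stands above each arrow, while Duoxa2 is given by its summed reads, 19 in LPS and 1 in PBS glands; orange marks a higher and blue a lower mean in LPS glands.

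LPS and PBS glands were compared to see how these transcripts stood 12 h after endotoxin reached the gland. Duox1 and Lpo fell, Duoxa1 was lower in the mean without passing the test across all genes, and Duox2 and Duoxa2, which were close to the detection limit in PBS glands, had higher means in LPS glands. Nox4 was low, with means of 0.296 and 0.322 FPKM. Genes with at least 1 FPKM in at least 5 libraries were tested, which kept Duox1, Duoxa1 and Lpo of the 6. limma called a gene at a Benjamini-Hochberg adjusted p below 0.05. It called 2 of these 3, both lower, where 3.23% of all 11414 tested genes were called and 0.605% were called lower (300 genes higher and 69 lower). Rescaled to the sum outside milk proteins, the split over all genes was 128 higher and 348 lower, and Duox1 and Lpo were still called lower. In RNA of whole glands, fewer cells that make a transcript and less of it per cell cannot be told apart. An exact permutation test (two-sided, all ways of dividing the 10 glands), whose smallest possible p is 0.00794, was also run for each of the 6 genes and for 3 ratios, without adjustment for these 9 tests.

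**Figure D2:**
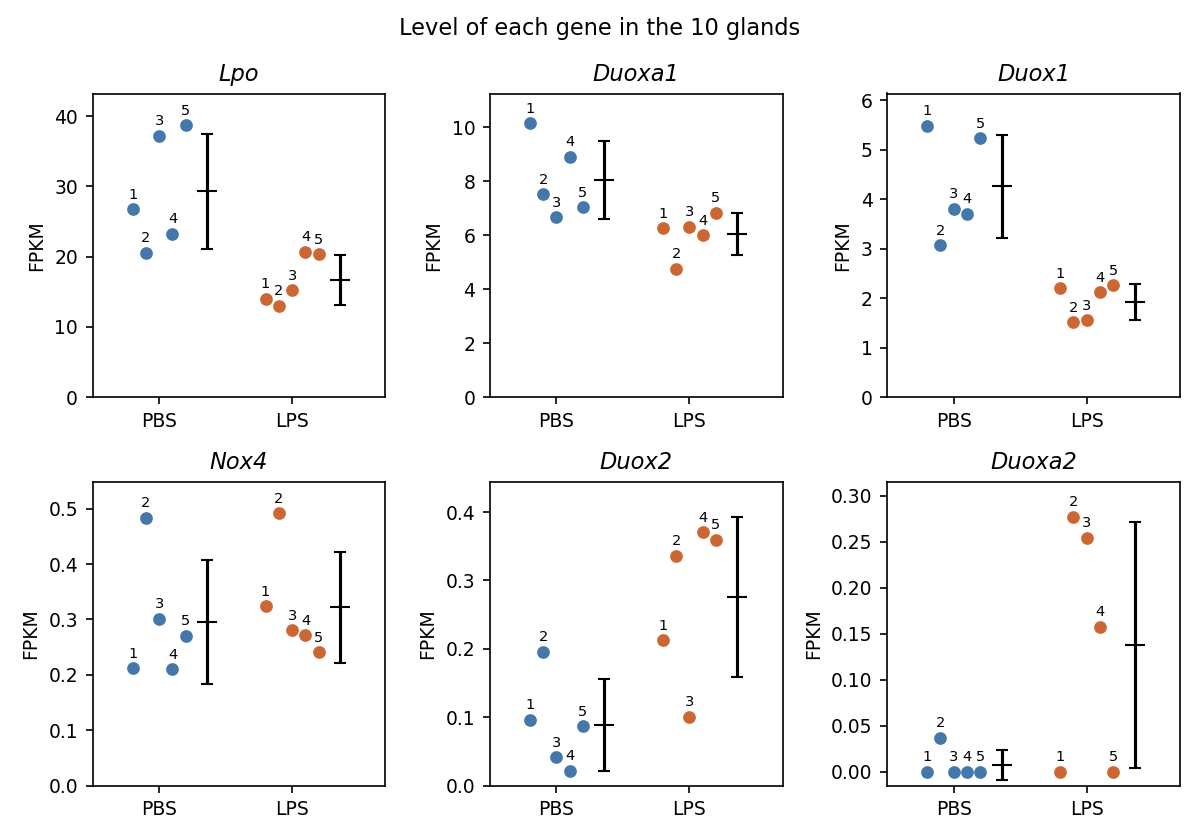
Level of each gene (y axis, FPKM, linear scale, a panel per gene) in the 5 PBS and 5 LPS glands (x axis); points are glands, numbers are replicate numbers and bars are the mean ± SD (n = 5). All LPS points of Duox1 lie below all PBS points, Lpo and Duoxa1 each have 4 LPS points below all PBS points, and Duox2 has 4 LPS points above all PBS points.

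Duox1, the dual oxidase known from airway epithelium and thyroid, was at 5.48, 3.07, 3.81, 3.70 and 5.23 FPKM in PBS replicates 1 to 5. In LPS replicates 1 to 5 it was at 2.20, 1.52, 1.56, 2.12 and 2.26 FPKM. The groups did not overlap: the highest LPS gland stood below the lowest PBS gland, a separation in this direction that 1.22% of tested genes showed. The mean went from 4.26 ± 1.04 (SD, n = 5) to 1.93 ± 0.364 FPKM, a level 2.20-fold lower. On the log2(FPKM + 1) scale, which understates the change of low genes, Duox1 fell by 0.83 (SE 0.15, 95% interval -1.14 to -0.51, limma adjusted p = 0.0115; exact permutation p = 0.00794). It was the 21st largest of the 69 falls across all genes. These values rest on 142 to 522 reads per gland, and the 95% Poisson interval of LPS replicate 5, the highest of its group, was 1.96 to 2.60 FPKM, below that of PBS replicate 2, the lowest of its group, at 2.72 to 3.46. In the authors' deposited table Duox1 had a log2 fold change of -0.97 and an adjusted p of 3.46e-05, where DESeq2 on recovered reads of all genes above 0 gave a log2 fold change of -1.21. That table lists 908 genes, 3.94% of the genes above 0 in any library, and 3 of the 6 genes are in it.

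The drop in Duox1 kept its call whichever gland was left out (limma adjusted p 0.00988 to 0.0380). PBS replicates 2 and 4, the lowest PBS glands for Duox1, were also those with the most B and T cell marker transcripts. Without the 4 glands richest in these markers the change was as large, at -0.86, with an adjusted p of 0.0835 from 3 glands against 3. LPS replicates 2 and 3, the lowest of all for Duox1, were the LPS glands among those 4.

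Duoxa1, the maturation factor that carries DUOX1 to the cell surface, was the more abundant of the pair in every gland. It was at 10.2, 7.52, 6.66, 8.91 and 7.04 FPKM in PBS replicates 1 to 5 and at 6.27, 4.76, 6.33, 5.99 and 6.84 FPKM in LPS replicates 1 to 5. Of the LPS glands 4 were below every PBS gland, and LPS replicate 5 was just above PBS replicate 3. The mean went from 8.06 ± 1.45 to 6.04 ± 0.777 FPKM (log2 change -0.36, SE 0.12, 95% interval -0.62 to -0.09). It was not called across all genes (limma adjusted p = 0.152), while the exact permutation p of this gene alone was 0.0159. The adjusted p was 0.0581 to 0.350 over its alternatives, other than leaving out 4 glands (0.703).

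The drop was larger in the oxidase than in its maturation factor. The level of Duox1 divided by that of Duoxa1 was 0.540, 0.409, 0.571, 0.416 and 0.743 in PBS replicates 1 to 5 and 0.351, 0.319, 0.246, 0.353 and 0.331 in LPS replicates 1 to 5, so every LPS gland was below every PBS gland. On the log2 scale of (FPKM + 1) ratios the mean went from -0.79 ± 0.30 to -1.26 ± 0.15 (difference -0.47, exact permutation p = 0.00794). With a pseudocount of 5 in place of 1 the difference was -0.17 with an exact p of 0.0794.

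Duox2, the dual oxidase of thyroid and of gut epithelium, was more than an order of magnitude below Duox1 in PBS glands. It was at 0.0963, 0.196, 0.0412, 0.0221 and 0.0870 FPKM in PBS replicates 1 to 5, which is 10, 19, 4, 2 and 8 reads. In LPS replicates 1 to 5 it was at 0.212, 0.336, 0.101, 0.371 and 0.359 FPKM, from 23, 35, 10, 34 and 35 reads. All LPS glands were above the PBS median and 4 of 5 were above every PBS gland, but LPS replicate 3 lay within the PBS range. Means were 0.0885 ± 0.0676 and 0.276 ± 0.117 FPKM. Over each group 43 and 137 reads were counted, a ratio per depth of 3.05 with an exact counting interval of 2.15 to 4.41, which leaves out the spread between glands.

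The tests of Duox2 disagreed. The exact permutation p on log2(FPKM + 1) was 0.0159, for this gene alone and unadjusted. Adjusted over the 23059 genes above 0, of which it called 126, limma gave 0.195. On recovered reads edgeR gave 0.101 over the 13794 genes that passed its own read filter, where 3.36% were called. DESeq2 on recovered reads of all genes above 0 gave 0.0389 (log2 fold change 1.62). It called 5.62% of the 15894 genes that it gave an adjusted p. The limma, edgeR and DESeq2 values are thus adjusted over unlike sets of genes. The authors' deposited table gives 0.0354 with a log2 fold change of 0.73, and the reason for the smaller fold change was not tested. Duox2 did not pass the FPKM filter, and it entered the edgeR test through reads that are mostly from the LPS group. When FPKM was rescaled to the sum outside milk proteins the exact p was 0.0556.

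The balance between the dual oxidases differed between the groups. The ratio of Duox1 to Duox2, per length, was 56.9, 15.7, 92.4, 167 and 60.1 in PBS replicates 1 to 5. In LPS replicates 1 to 5 it was 10.4, 4.52, 15.5, 5.71 and 6.29. Each LPS gland was below each PBS gland, although LPS replicate 3 at 15.5 and PBS replicate 2 at 15.7 nearly met, and the ratios of PBS replicates 3 and 4 rest on 4 and 2 reads of Duox2. As log2 ratios of (FPKM + 1) the means were 2.25 ± 0.32 and 1.20 ± 0.18, a difference of -1.06 (exact permutation p = 0.00794). Duox2 was at most 0.371 FPKM, so with 1 added it changed by only 0.23, while Duox1 changed by -0.83. The test of this ratio therefore mostly repeats that of Duox1 and is not separate evidence for a change in Duox2. Duox1 was the more abundant dual oxidase in all 10 glands.

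**Figure D3:**
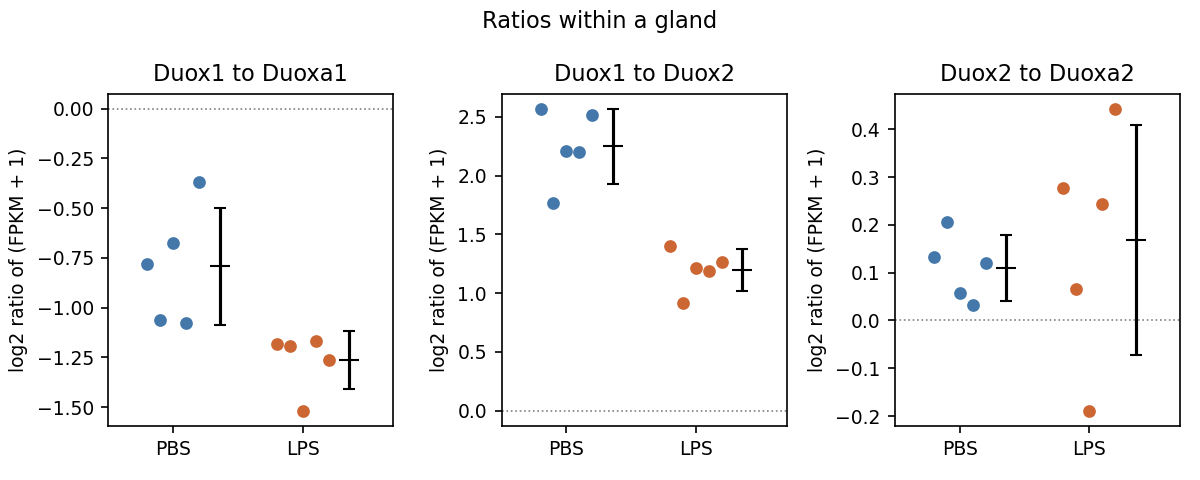
Ratios within a gland (y axis, log2 of the ratio of FPKM + 1, linear axis) for the pairs Duox1 to Duoxa1, Duox1 to Duox2, and Duox2 to Duoxa2, in 5 PBS and 5 LPS glands (x axis); points are glands and bars the mean ± SD. In the Duox1 panels the LPS glands lie below the PBS glands, with mean differences of -0.47 and -1.06, and the Duox2 to Duoxa2 panel shows overlapping groups.

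Duoxa2, the maturation factor of DUOX2, was at the limit of detection. It had no reads in 4 of 5 PBS glands and 1 read in PBS replicate 2 (0.0372 FPKM). In LPS replicates 2, 3 and 4 it had 8, 7 and 4 reads (0.277, 0.254 and 0.157 FPKM), and in LPS replicates 1 and 5 it had none. A count of 0 allows a level of up to 3 reads, which is 0.0999 to 0.120 FPKM in these libraries. The summed reads, 19 against 1, gave a ratio per depth of 18.2 with an exact counting interval of 2.90 to 757, and the exact permutation p over glands was 0.167. Its reads did not follow those of Duox2 across LPS glands: LPS replicate 3 had 7 reads of Duoxa2 and the fewest of Duox2, and LPS replicate 5 had none of Duoxa2 and 35 of Duox2. The ratio of the pair did not pass the test (difference 0.06 on the log2 scale of (FPKM + 1) ratios, exact permutation p = 0.619).

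Lpo, the peroxidase of the set, had the highest level of the 6 genes in every gland and stood above 82.0% of tested genes in mean FPKM. It was at 26.7, 20.6, 37.2, 23.3 and 38.7 FPKM in PBS replicates 1 to 5 and at 14.0, 13.0, 15.3, 20.7 and 20.4 FPKM in LPS replicates 1 to 5. Of the LPS glands 4 were below every PBS gland, and LPS replicate 4 was level with PBS replicate 2. The mean went from 29.3 ± 8.22 to 16.7 ± 3.62 FPKM, a level 1.76-fold lower. On the log2(FPKM + 1) scale Lpo fell by 0.76 (SE 0.19, 95% interval -1.16 to -0.35, limma adjusted p = 0.0469; exact permutation p = 0.0159). The authors' deposited table gives a log2 fold change of -0.72 and an adjusted p of 0.00417, where DESeq2 on recovered reads of all genes above 0 gave a log2 fold change of -0.88.

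The limma call of Lpo was close to the threshold. It was lost when any of 8 of the 10 glands was left out, that is all but LPS replicate 4 and PBS replicate 2, with adjusted p of 0.0504 without LPS replicate 5, 0.0740 without LPS replicate 1, 0.105 without LPS replicate 3 and 0.133 without LPS replicate 2. Without PBS replicates 4, 3, 1 and 5 in turn it was 0.0662, 0.0884, 0.0961 and 0.101. The size of the change held at -0.65 to -0.87 over these fits. PBS replicates 2 and 4, lowest for Lpo as they were for Duox1, were richest in B and T cell markers, and without the 4 richest glands the change was -0.86 and was not called (limma adjusted p = 0.153, 3 glands against 3). Depth did not limit this gene, with 691 to 1840 reads per gland.

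**Figure D4:**
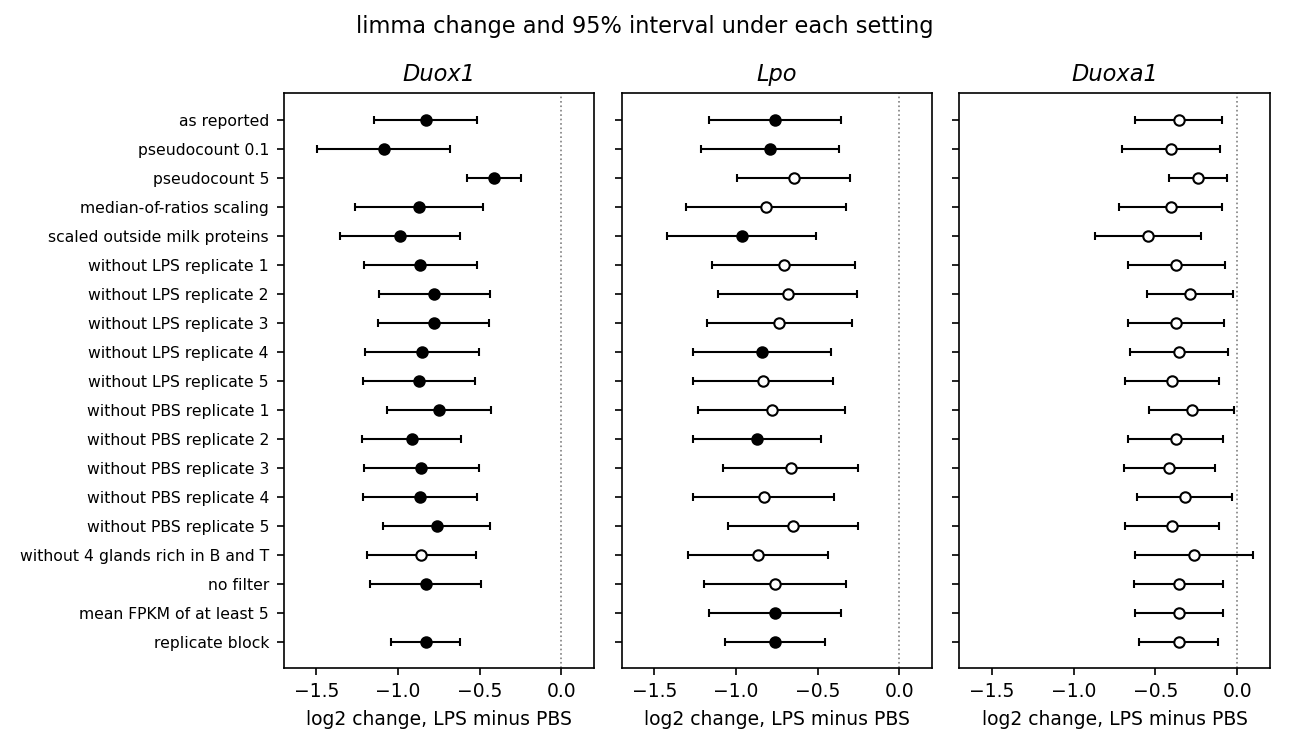
Log2 change of Duox1, Lpo and Duoxa1 (x axis, LPS minus PBS on the log2(FPKM + pseudocount) scale, points with 95% limma intervals) under each setting (y axis); filled points have an adjusted p below 0.05. Points are on the same side of 0 throughout; Duox1 lost the call once (adjusted p = 0.0835), Lpo lost it in more fits than Duox1, and Duoxa1 was never called.

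Nox4 was at 0.212, 0.484, 0.302, 0.211 and 0.271 FPKM in PBS replicates 1 to 5 and at 0.324, 0.492, 0.280, 0.272 and 0.241 FPKM in LPS replicates 1 to 5. The groups overlapped, and replicate 2 was the highest of both. Means were 0.296 ± 0.112 and 0.322 ± 0.0998 FPKM from 13 to 35 reads per gland. The summed reads, 111 against 97, gave a ratio per depth of 1.10 with an exact counting interval of 0.828 to 1.46, and the exact permutation p was 0.579. PBS replicate 2 also had the highest sums of endothelial and fibroblast markers among PBS glands, at 59.7 and 210 FPKM. LPS replicate 2 had the highest endothelial sum among LPS glands, at 57.1 FPKM, and a fibroblast sum of 189 FPKM, second to LPS replicate 4. The part of these cells in the level of Nox4 was not tested.

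In PBS glands the order of mean levels was Lpo, Duoxa1, Duox1, Nox4, Duox2 and Duoxa2. Each gene was above the next in all 5 glands with ranges apart, except that the ranges of Duox2 and Duoxa2 met. The order of means was the same in LPS glands, but Nox4 and Duox2 no longer differed beyond their spread, with Nox4 higher in 3 of 5 glands, and Duox2 and Duoxa2 overlapped too. Among tested genes, likeness in pattern was judged by the root mean square difference of log2(FPKM + 1) profiles centred on each gene's mean over the 10 glands. Hid1, a Golgi protein gene (0.17), Tmem182 (0.18) and Clec12a, a receptor gene of myeloid cells (0.19), were nearest to Duox1, where the median gene was at 0.56. Pla2g4f, a phospholipase gene, Kcnk6, a potassium channel gene, and Lao1, an L-amino acid oxidase gene of mouse milk, were nearest to Lpo, each at 0.21 with a median of 0.57. Arl1, a small GTPase gene of the Golgi (0.09), and Acadsb, an acyl-CoA dehydrogenase gene (0.09), were nearest to Duoxa1, with a median of 0.35. Since these genes were picked for their likeness over the same glands, no test between the groups is given for them.

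Around these genes, the lists of the same chemistry were mostly not called by limma. The other NADPH oxidases and their partners had 0 of 11 tested genes called of 14 listed, with a median log2 change of 0.18 where all tested genes had 0.05. Cyba, the p22phox subunit that NOX4 and the phagocyte oxidase need, was at 55.4 ± 10.2 and 78.1 ± 20.4 FPKM (limma adjusted p = 0.214), and the small GTPase gene Rac1 at 105 ± 1.88 and 114 ± 6.58 FPKM (0.436). Cybb, the catalytic subunit of the phagocyte oxidase, was at 6.37 ± 1.93 and 6.16 ± 2.33 FPKM (0.930), named after its values were seen. Of the other heme peroxidases, Pxdn, which crosslinks basement membrane collagen, was the only 1 of 4 tested, at 9.88 ± 1.83 and 13.6 ± 3.11 FPKM (0.177). Mpo, which did not pass the filter, was at 0 to 0.670 FPKM in PBS and 0 to 0.0601 FPKM in LPS glands.

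Genes that could bring thiocyanate or halides to the peroxidase had 0 of 5 tested genes called of 8 listed (median log2 change -0.15). The chloride channel gene Ano1 was at 45.4 ± 8.27 and 41.2 ± 9.08 FPKM (limma adjusted p = 0.727) and the cotransporter gene Slc12a2 at 16.0 ± 0.805 and 17.7 ± 2.65 FPKM (0.615). Outside the rule for naming genes, Slc5a5, the sodium iodide symporter that also carries thiocyanate, was at 7.89 ± 1.85 and 6.80 ± 1.47 FPKM (0.637). Slc26a4, which encodes the anion exchanger pendrin, had 4, 16, 5, 1 and 14 reads in LPS replicates 1 to 5 and 1 read in all 5 PBS glands together, named after these values were seen and therefore not tested. The hydrogen peroxide channels had 0 of 3 tested aquaporin genes called of 5 listed (median -0.35), with Aqp1 at 18.5 ± 6.02 and 16.1 ± 6.66 FPKM (0.785) and Aqp9 at 12.4 ± 2.59 and 9.67 ± 3.05 FPKM (0.380). The superoxide dismutase genes, whose products make hydrogen peroxide, had 0 of 3 called (median 0.17), with Sod1 at 112 ± 11.4 and 126 ± 21.8 FPKM (0.632) and Sod2 at 68.7 ± 3.60 and 77.9 ± 8.04 FPKM (0.341). In these 5 lists edgeR and DESeq2 on recovered reads also called 0 genes, and the authors' deposited table lists none. At an unadjusted limma p below 0.05 were Cyba and Pxdn, with higher means in LPS glands, and Aqp3, an aquaporin gene, with a lower mean. The share of all tested genes at that unadjusted p was not counted.

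Of the hydrogen peroxide removal genes, 3 of 17 rose and 0 fell by limma, where 2.63% of all tested genes were called higher, with a median log2 change of 0.14. Gpx2, a glutathione peroxidase of epithelia, rose from 0.680 ± 0.188 to 3.70 ± 1.60 FPKM (log2 change 1.42, limma adjusted p = 0.00553). It was at most 0.834 FPKM in PBS and at least 1.99 in LPS glands, so it passed the filter only through the LPS glands. The count of 3 includes it with that limit. Txn1, the cytosolic thioredoxin, rose from 101 ± 18.4 to 176 ± 40.0 FPKM (0.0228), and Prdx1, a peroxiredoxin, from 213 ± 16.6 to 290 ± 40.1 FPKM (0.0485). Of these 17 genes edgeR called 2 and DESeq2 4, all higher. Over all genes that passed the FPKM filter, edgeR called 305 of 11414 higher and DESeq2 546 of 11412. Of the receptors and factors through which cytokines and bacterial products are known to act on dual oxidase genes, 2 of 12 tested genes rose and 0 fell by limma (median 0.37), while edgeR called 1 and DESeq2 3, all higher. Il13ra1, a receptor chain for interleukin 13, which induces DUOX1 in airway epithelium, rose from 4.14 ± 0.537 to 7.96 ± 2.12 FPKM (limma adjusted p = 0.0201). Ifngr1, a receptor chain for interferon gamma, which induces DUOX2 there, rose from 85.4 ± 6.99 to 116 ± 12.5 FPKM (0.0308).

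Marker lists of the cells that could hold these transcripts are given beside the results. By limma, luminal epithelium had 1 of 8 genes called higher and 0 lower, where 2.63% of all tested genes were called higher. Its sums were 1005 to 1121 FPKM in PBS and 1077 to 1306 in LPS glands, while Duox1 and Lpo were lower there. At an unadjusted limma p below 0.05 were 4 of the 8, all higher, and edgeR called 0 and DESeq2 1. Over all genes that passed the FPKM filter, edgeR called 305 of 11414 higher and 132 lower. DESeq2 called 546 of 11412 higher and 299 lower. The share of all tested genes at an unadjusted limma p below 0.05 was not counted, so those counts have no background beside them. Luminal progenitor markers had 1 of 3 tested genes called higher by limma and 0 lower, of 5 listed. The 3 tested, Kit, Cd14 and Ltf, were higher at an unadjusted limma p below 0.05, and edgeR called 1 and DESeq2 2. The other listed genes did not pass the filter. Aldh1a3 had means of 0.433 FPKM in PBS and 0.414 in LPS glands, and Prom1 of 0.273 and 0.349. Whether the higher levels reflect progenitor cell content was not tested. Milk protein genes had 0 of 8 called by limma and by edgeR, with a median log2 change of -0.32 and 3 of 8 at an unadjusted limma p below 0.05, all lower. DESeq2 called 2 of them lower, and the authors' deposited table lists the casein genes Csn2 (log2 fold change -0.59, adjusted p = 0.00611) and Csn3 (-0.46, 0.0274) as lower, the direction of Duox1 and Lpo. Basal epithelium had 1 of 5 tested genes called higher by limma and 0 lower, with sums of 296 to 403 and 386 to 501 FPKM. At an unadjusted limma p below 0.05 were 3 of the 5, all higher, and edgeR called 1 and DESeq2 2. The authors' deposited table lists 1 luminal, 1 luminal progenitor and 2 basal markers, all as higher. Macrophage markers had 0 of 7 tested called by limma and by edgeR and 0 at an unadjusted limma p below 0.05 (sums of 97.4 to 368 and 75.2 to 178 FPKM). DESeq2 called 1 of them lower, and the authors' deposited table lists Csf1r as lower (log2 fold change -0.56, adjusted p = 0.0360). The eosinophil markers, whose peroxidase gene Epx lies near Lpo, had sums of at most 0.907 FPKM with none tested. What these cell contents contribute to Duox1, Lpo or Duox2 was not tested.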

How the data were processed

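RNA-seq of 10 mammary gland libraries (5 LPS, 5 PBS) was analysed from the authors' deposited tables. Build mm10 and the tools STAR 2.5, HTSeq 0.6.1 and DESeq2 (its version is listed as 2) are named per the submitters' processing notes; settings and annotation release are not given in the sources used here. The authors deposited FPKM for 35275 genes, of which 23059 were above 0 in at least 1 library. For 908 listed genes they also deposited raw read counts per gene, values that the authors normalized by library (a signal), log2 fold changes and p-values, per the file headers.

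Depth per library came from counts, FPKM and lengths of the listed genes. Whole reads were recovered for 23057 of 23059 genes (tolerance 0.002 reads) by finding a gene length that made all values whole; Poisson and exact binomial intervals on them cover counting error only. Symbols were matched through a table of Ensembl names. Promoter windows are from RefSeq (GRCm38.p6), which held all 6 genes, and gene structures from GENCODE M21. No protein sequence table was used.

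limma 3.58.1 (R 4.3.3, intensity trend, two-sided) was fitted to log2(FPKM + 1) of genes with at least 1 FPKM in at least 5 libraries, with group as the only term. Alternatives were pseudocounts of 0.1 and 5, filters (none, mean FPKM of at least 5), other scalings, leaving out glands, a replicate block, and edgeR 4.0.16 and DESeq2 1.42.0 on recovered reads; the last 2 without the FPKM filter were added after the values were seen. Fits were tested on simulated data. Named genes were all 6 members, every called gene of a pathway list or else its 2 of highest mean FPKM, and the 3 nearest profiles per tested member, of which 1 is not reported here. The members and lists were chosen with earlier results of these data known.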

Additional observations from a re-analysis of the deposited data

Results flagged for a closer look

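Of 18 groups of 5 values checked (6 genes and 3 ratios in 2 groups), 2 had a value far from the other 4; about 1 in 20 such groups does so by chance. Duoxa2 in PBS replicate 2, at 0.0372 FPKM, stood apart because it rests on 1 read and the other PBS glands had none. The log2 ratio of Duox1 to Duoxa1 in LPS replicate 3, at -1.52, was below the other LPS glands (-1.26 to -1.17); its gap to the nearest gland was 0.719 of the group's range, where 0.71 is the critical value. That gland also had the fewest Duox2 reads of the LPS group and the most B and T cell marker transcripts of that group, and their part in the ratio was not tested.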

How the results depend on the processing

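The number of genes called across the table was 369, with 150 to 517 when 1 gland was left out (150 without LPS replicate 2, 202 without LPS replicate 3, and 160, 150 and 226 without PBS replicates 1, 4 and 5), 8 without the 4 glands richest in B and T cell markers (edgeR and DESeq2 were not run there), 126 without a filter, and 845 and 894 with DESeq2 on recovered reads with and without the FPKM filter. The cause of these shifts was not tested. Of the 3 tested members 2 were called, and 1 to 2 with a gland left out. That number was 1 with a pseudocount of 5, with median-of-ratios scaling and without a filter, 1 of the 2 left under a mean FPKM of at least 5 (Duox1 dropped out), and 0 without the 4 glands. Rescaling to the sum outside milk proteins took the median change over tested genes (log2) from 0.05 to -0.13, and Duox1 was then at -0.99 and Lpo at -0.96. Duox1 ranged from -0.92 to -0.75 with 1 gland left out, was at -0.41 with a pseudocount of 5, which shrinks low genes by construction, and was at -0.86 (adjusted p = 0.0835) without the 4. Lpo ranged from -0.87 to -0.65, and was at -0.65 (0.0505) with a pseudocount of 5, -0.81 (0.0738) with median-of-ratios scaling, -0.76 (0.126) without a filter and -0.86 (0.153) without the 4. Duoxa1 stayed uncalled under its 22 alternatives.

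Duox2 ranged from 0.20 to 0.28 with 1 gland left out (exact permutation p 0.0159 to 0.0397), and was at 0.20 (0.0556) scaled outside milk proteins, 0.29 without the 4 (0.1, the smallest possible), 0.23 in limma without a filter (adjusted p = 0.195) and 1.59 in edgeR (adjusted p = 0.101). Duoxa2 ranged from 0.12 to 0.21, and was past the threshold without LPS replicate 1 or 5, each at 0.21 (exact p = 0.0476). Nox4 turned to -0.020 scaled outside milk proteins and to -0.015 without LPS replicate 2 (range -0.015 to 0.080 with 1 gland left out). The ratio of Duox1 to Duoxa1 ranged from -0.54 to -0.37, and was -0.17 with a pseudocount of 5 (exact p = 0.0794) and -0.60 without the 4 (0.1). That of Duox1 to Duox2 ranged from -1.18 to -0.98 and was -1.15 without the 4 (0.1). That of Duox2 to Duoxa2 ranged from -0.010, without LPS replicate 5, to 0.15. The cause of these shifts was not tested either.

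With the replicate number as a replicate block 1229 genes were called, Duox1 (adjusted p = 0.00128) and Lpo (0.00915) kept their calls and Duoxa1 was not called (0.0692). Across the 5 numbers Duox1, Lpo and Duoxa1 were lower in the LPS gland in 5 of 5 and Duox2 was higher in 5 of 5. The groups did not overlap for Duox1, so any numbering gives that result. For Lpo, Duoxa1 and Duox2, 4 LPS glands lay beyond all PBS glands, so most numberings give it too. These signs therefore add no evidence beyond the group comparison, and the share of all genes with 5 of 5 was not counted. In sign-flip tests over 5 numbered pairs, whose smallest exact p is 0.0625, Duox2 was at 0.23, Duox1 to Duoxa1 at -0.47 and Duox1 to Duox2 at -1.06, each with that p. For both ratios the groups did not overlap, so any numbering gives that p. The labels do not state that a number marks 1 mouse; glands of the same number had correlated deviations of 0.0993 to 0.494 across genes, while LPS replicate 3 correlated best with PBS replicate 2 (0.421) and LPS replicate 4 with PBS replicate 3 (0.141).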
